A study of Homo sapiens with 12 samples.

Results

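The 7 genes at the meeting point of plasminogen activation and blood coagulation were followed here through all 12 libraries of the series: PLAU, PLAUR, PLAT, SERPINE2, SERPINB2, F3 and THBD. They were the rows of the deposited gene table that carry these 7 symbols, 7 of 57773 genes, and all 7 passed the filter on low counts. RNA had been sequenced as polyA RNA from U87, an established human glioblastoma cell line, either as parental cells or as cells that the series describes as resistant to JQ1, an inhibitor that occupies the bromodomains of the BET proteins. Each line had been exposed for 24 h to 1000 nM dBET6, to 1000 nM JQ1 or to DMSO, the solvent, which gives the groups resistant dBET6, resistant JQ1, resistant DMSO, parental dBET6, parental JQ1 and parental DMSO with 2 libraries each. dBET6 carries a JQ1-derived BET ligand joined by a linker to a ligand of the ubiquitin ligase component cereblon, so that BET proteins are degraded. How the resistant cells were obtained, and whether they are 1 clone, is not given in the sources used here, and the labels do not say whether the 2 libraries of a group came from separate cultures, so the spread behind every p-value is that between such libraries and may be technical.

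Plasminogen circulates as an inactive precursor and is cut to plasmin, a protease that dissolves fibrin and cleaves matrix proteins, by the activators urokinase (PLAU) and tissue plasminogen activator (PLAT). Urokinase works at the cell surface while bound to its receptor (PLAUR), and the activators are inhibited by serpins, among them protease nexin-1 (SERPINE2), which also inhibits thrombin, and plasminogen activator inhibitor 2 (SERPINB2). Tissue factor (F3) starts coagulation, thrombomodulin (THBD) binds thrombin and turns it to the activation of protein C, and urokinase with its receptor is known in glioblastoma for matrix breakdown at the invading edge.

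From the RefSeq promoter table (build GRCh38.p14), 7 promoters were examined, for 5 of the genes: PLAU, PLAUR, SERPINE2, SERPINB2 and F3. The 250 bases before the start are shown for the 4 of these that were lower in the JQ1 libraries of parental cells, each 5′ to 3′ along the gene's strand, with matches to the AP-1 letters TGANTCA and to the TATA letters TATAAA, on either strand, in capitals. The coordinates are those of the RefSeq table and not of the authors' quantification, which used hg19 per the submitters' processing notes. The windows are chr1:94541760-94542009 on the minus strand for F3, chr19:43670170-43670419 on the minus strand for PLAUR, chr18:63887455-63887704 on the plus strand for SERPINB2, and chr10:73910882-73911131 on the plus strand for PLAU, where the table has 2 starts and the one shown lies within 100 bases of the start of an annotated PLAU transcript.
F3: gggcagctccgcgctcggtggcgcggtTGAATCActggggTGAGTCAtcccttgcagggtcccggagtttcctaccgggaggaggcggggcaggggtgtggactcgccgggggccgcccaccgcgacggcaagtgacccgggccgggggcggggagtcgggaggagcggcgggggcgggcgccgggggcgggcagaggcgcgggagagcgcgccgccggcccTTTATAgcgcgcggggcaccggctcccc
PLAUR: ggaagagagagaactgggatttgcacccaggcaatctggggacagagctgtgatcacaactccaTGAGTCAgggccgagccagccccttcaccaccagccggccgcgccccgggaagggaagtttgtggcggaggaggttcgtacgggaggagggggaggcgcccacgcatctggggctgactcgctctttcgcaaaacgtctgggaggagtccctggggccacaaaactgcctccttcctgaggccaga
SERPINB2: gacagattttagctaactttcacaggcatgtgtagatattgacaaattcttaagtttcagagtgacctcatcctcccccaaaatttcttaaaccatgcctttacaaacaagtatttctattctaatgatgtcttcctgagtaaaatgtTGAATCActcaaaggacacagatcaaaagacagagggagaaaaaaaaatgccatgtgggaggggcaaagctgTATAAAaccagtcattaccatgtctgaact
PLAU: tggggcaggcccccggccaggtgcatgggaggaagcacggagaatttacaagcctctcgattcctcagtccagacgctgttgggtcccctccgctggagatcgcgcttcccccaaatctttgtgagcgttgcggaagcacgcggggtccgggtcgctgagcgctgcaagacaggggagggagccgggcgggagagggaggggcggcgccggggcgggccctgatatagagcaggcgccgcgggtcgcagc
Counted from the start, AP-1 matches began at -223 and -210 in F3, at -186 in PLAUR and at -102 in SERPINB2, and TATA matches began at -28 in F3 (TTTATA) and at -30 in SERPINB2. No AP-1 or TATA match lay in either PLAU window or in either SERPINE2 window. Neither SERPINE2 start, nor the PLAU start not shown, lay within 100 bases of the start of a transcript with at least 10% of its gene's TPM in some library. Absence of a match in those windows therefore says nothing of the starts of such transcripts. The PLAUR start lay within 100 bases of the starts of PLAUR-202 and PLAUR-211. It did not for PLAUR-203, the transcript with the most estimated counts (48.5% to 66.0% of PLAUR counts in a library). PLAUR-203 starts at chr19:43670350, inside the window shown, so part of this window lies in its first exon. The position -186 in PLAUR is counted from the RefSeq start and not from that of PLAUR-203. Of all 35116 promoters of 300 bases in the table, 7.71% held the AP-1 letters and 11.5% the TATA letters, and AP-1 and TATA matches did not overlap in these windows. A match is a description of letters and not a measured binding site.

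The libraries held 24732177 to 40388589 estimated counts, and the 2 libraries of a group correlated across genes at 0.982 to 0.994 (genes are not independent replicates). Levels below are the deposited FPKM, which are per length and can be set beside each other between genes. The deposited FPKM carry a further factor per library: TPM over FPKM was 0.435 to 0.584 in the 4 dBET6 libraries and 1.23 to 1.54 in the other libraries, so FPKM stand higher in the dBET6 libraries than shares of the sequenced RNA do. Mitochondrially encoded mRNAs took 3.02% to 3.75% of the counts in the dBET6 libraries and 1.40% to 2.59% in the others. Of the markers of other cells, all 8 mesenchymal glioblastoma markers averaged at least 1 FPKM in every group, against 3 or 4 of 8 glial markers, with GFAP at means of 1.84 to 5.32 FPKM. The 9 endothelial markers in the table, of 10 listed, summed to 1.17 to 4.89 FPKM in a library. Myeloid markers summed to 1093 to 1107 FPKM in resistant dBET6, 491 to 628 FPKM in parental dBET6 and 190 to 275 FPKM in the other libraries, with CD68 as most of the sum in every group. FCGR1A averaged 213 FPKM in resistant dBET6, 58.6 FPKM in parental dBET6 and 0.0589 and 0.0227 FPKM in resistant and parental DMSO, while no group mean of PTPRC, TYROBP or AIF1 exceeded 0.204 FPKM. Their part in the dBET6 results below was not tested. In such bulk RNA, fewer cells with a transcript and less of it per cell cannot be told apart.

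PLAUR, the urokinase receptor, stood at 443 and 410 FPKM in resistant dBET6, 108 and 103 FPKM in resistant JQ1 and 149 and 152 FPKM in resistant DMSO. In parental cells it stood at 279 and 215 FPKM with dBET6, 55.03 and 55.51 FPKM with JQ1 and 140 and 130 FPKM with DMSO. In both lines the JQ1 libraries were the lowest and, in FPKM, the dBET6 libraries the highest. This order turns without the factor per library: in TPM, PLAUR had 193 and 178 in resistant dBET6, against 230 and 229 in resistant DMSO, and 161 and 125 in parental dBET6, against 209 and 190 in parental DMSO. PLAU, the urokinase gene, had 17.4 and 18.2 FPKM in resistant dBET6, 6.51 and 8.22 FPKM in resistant JQ1 and 49.6 and 47.2 FPKM in resistant DMSO. Parental cells held 47.4 and 42.2 FPKM of PLAU with dBET6, 7.83 and 7.08 FPKM with JQ1 and 91.2 and 93.4 FPKM with DMSO. Here DMSO was highest and, in FPKM, JQ1 lowest in both lines. In TPM, resistant dBET6 was lower, at 7.59 and 7.91, against 8.59 and 10.1 in resistant JQ1. Under the same treatment the lines overlapped only with JQ1. The exons of PLAU overlap C10orf55 on the other strand, which was at 0.0795 to 0.592 FPKM in every library. PLAT, the other activator, was low throughout: 2.47 and 2.09 FPKM in resistant dBET6, 2.26 and 2.48 FPKM in resistant JQ1 and 1.29 and 1.49 FPKM in resistant DMSO. Its parental libraries had 1.55 and 1.43 FPKM with dBET6, 2.19 and 2.54 FPKM with JQ1 and 2.06 and 1.99 FPKM with DMSO. In FPKM the dBET6 libraries of PLAT lay above DMSO in resistant cells and below DMSO in parental cells. In TPM they lay below DMSO in resistant cells too, at 1.08 and 0.912, against 1.88 and 2.03.

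SERPINE2, the serpin that inhibits urokinase and thrombin, had 313 and 297 FPKM in resistant dBET6, 97.8 and 100 FPKM in resistant JQ1 and 42.0 and 40.9 FPKM in resistant DMSO. In parental cells it had 278 and 296 FPKM with dBET6, 131 and 137 FPKM with JQ1 and 51.6 and 64.0 FPKM with DMSO. It is the only 1 of the 7 in which both compounds lay above DMSO in both lines. In TPM the compounds stood close. Resistant cells had 136.6 and 129.0 with dBET6, against 128.9 and 123.2 with JQ1. In parental cells dBET6 was then the lower, at 160.1 and 172.7, against 173.0 and 175.3. SERPINB2, an inhibitor of urokinase found mostly inside cells, had 39.5 and 40.6 FPKM in resistant dBET6, 4.86 and 4.49 FPKM in resistant JQ1 and 23.7 and 20.0 FPKM in resistant DMSO. Parental cells had 40.7 and 43.7 FPKM with dBET6, 2.72 and 3.19 FPKM with JQ1 and 40.6 and 39.6 FPKM with DMSO. The JQ1 libraries of SERPINB2 stood below all others in both lines. In TPM the dBET6 libraries were below DMSO as well (17.2 and 17.7, against 36.4 and 30.1, in resistant cells). SERPINB2 shares exon sequence with SERPINB10, a neighbouring serpin on the same strand, which had 16.0 and 19.8 FPKM in resistant dBET6, 6.84 and 6.34 FPKM in parental dBET6 and at most 0.0466 FPKM in any JQ1 or DMSO library, so SERPINB2 values in dBET6 libraries are less certain than those elsewhere.

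F3 and THBD were scarce. F3, the tissue factor gene, had 0.782 and 0.892 FPKM in resistant dBET6, 0.893 and 0.700 FPKM in resistant JQ1 and 1.21 and 1.07 FPKM in resistant DMSO. In parental cells it had 2.20 and 1.90 FPKM with dBET6, 0.749 and 0.753 FPKM with JQ1 and 2.08 and 2.16 FPKM with DMSO. Only the parental dBET6 and DMSO libraries were near 2 FPKM, where they overlapped. In TPM they stood apart, at 1.26 and 1.12 with dBET6, against 3.10 and 3.16 with DMSO. F3 rested on 16.0 to 168 estimated counts per library. THBD, the thrombomodulin gene, had 0.253 and 0.158 FPKM in resistant dBET6, 0.797 and 0.822 FPKM in resistant JQ1 and 6.59 and 6.39 FPKM in resistant DMSO. Parental cells had 0.129 and 0.163 FPKM with dBET6, 0.425 and 0.452 FPKM with JQ1 and 5.58 and 6.39 FPKM with DMSO. All 8 treated libraries lay far below the 4 DMSO libraries, and the dBET6 libraries rested on 11 to 16 counts each, against 1045 to 1442 counts in DMSO.

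**Figure D1:**
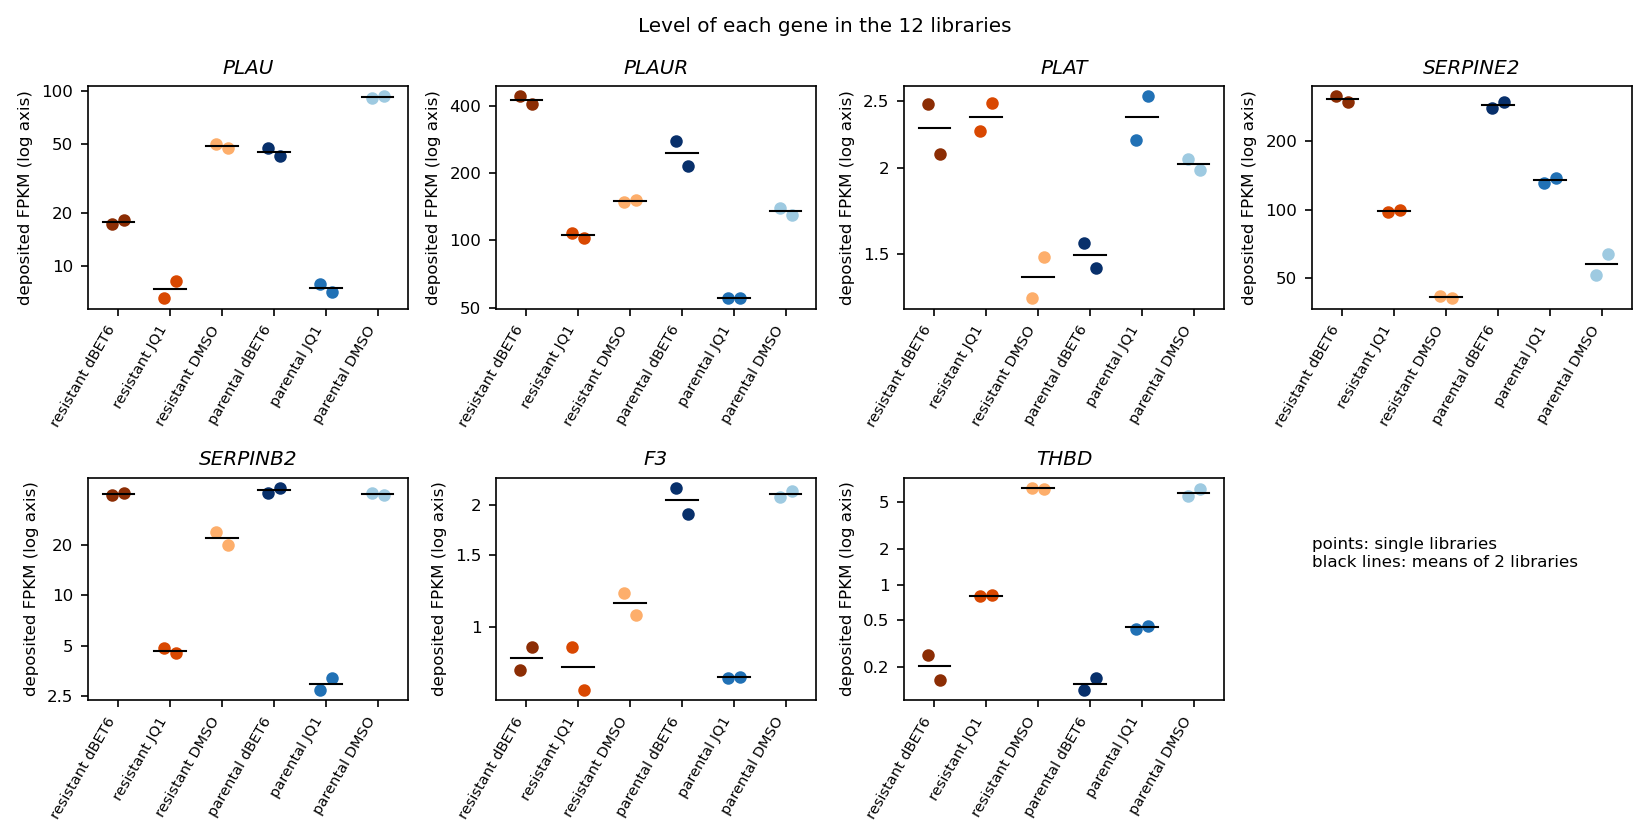
Deposited FPKM of each gene on a log axis (the scale differs by panel), with the groups along the horizontal axis, points for single libraries and black lines for the means of 2 libraries. THBD is low in all treated libraries, and in FPKM PLAU and SERPINB2 are lowest in JQ1 and SERPINE2 is highest in dBET6, an order between compounds that the factor per library of the FPKM can turn.

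Ordered by mean FPKM, DMSO cells of both lines held most PLAUR, then PLAU, SERPINE2, SERPINB2 and THBD, with F3 and PLAT last. With JQ1 the order in parental cells was SERPINE2, PLAUR, PLAU, SERPINB2, PLAT, F3 and THBD, and in resistant cells PLAUR, SERPINE2, PLAU, SERPINB2, PLAT, THBD and F3. The neighbours whose libraries overlapped were THBD and F3 in resistant JQ1, SERPINE2 and PLAUR in parental dBET6, and PLAU and SERPINB2 in parental dBET6. With dBET6 the resistant order was PLAUR, SERPINE2, SERPINB2, PLAU, PLAT, F3 and THBD, and the urokinase receptor stood at a mean of 426 FPKM beside 17.8 FPKM of urokinase, against 151 FPKM beside 48.4 FPKM in resistant DMSO. In parental cells the same pair stood at 247 FPKM and 44.8 FPKM with dBET6, against 135 FPKM and 92.3 FPKM with DMSO.

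With JQ1, urokinase, its receptor, thrombomodulin and the inhibitor SERPINB2 fell in both lines while SERPINE2 rose. The tests below are edgeR's quasi-likelihood test on estimated counts with TMM scaling, with Benjamini-Hochberg adjustment over 19093 genes and a threshold of 0.05, and each fold change is given on the log2 scale ± its standard error (n = 2 libraries a group). In parental cells 1 of the 7 rose and 5 fell, where 48.9% of all genes passed the test (22.8% higher and 26.1% lower). The fall of THBD (-3.77 ± 0.14, adjusted p = 1.26e-17), SERPINB2 (-3.76 ± 0.11, adjusted p = 6.83e-20) and PLAU (-3.67 ± 0.11, adjusted p = 5.16e-20) left each at a small share of its DMSO level, at folds of 0.0733 for THBD, 0.0736 for SERPINB2 and 0.0787 for PLAU. These 3 falls were known when the genes were chosen and are a description here. PLAUR fell by 1.31 ± 0.09 (adjusted p = 1.59e-12) and F3 fell by 1.55 ± 0.23 (adjusted p = 2.17e-06). SERPINE2 rose by 1.13 ± 0.08 (adjusted p = 9.83e-12), and PLAT did not pass (0.24 ± 0.15, 95% interval -0.07 to 0.56, adjusted p = 0.2). The median of the 7 was -1.55, beside 0.01 over all genes tested. The 3 known falls enter this median and the count of 5, so nothing is read from either. On TMM-scaled counts the JQ1 and DMSO libraries did not overlap for any of the 7, as for 71.7% of all genes.

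In resistant cells 2 of the 7 rose with JQ1 and 4 fell, where 43.9% of all genes passed (20.8% higher and 23.1% lower). The falls were those of THBD (-2.99 ± 0.13, adjusted p = 3.55e-16), PLAU (-2.72 ± 0.10, adjusted p = 1.91e-17), SERPINB2 (-2.21 ± 0.10, adjusted p = 2.18e-15) and PLAUR (-0.74 ± 0.09, adjusted p = 6.61e-08). The risers were SERPINE2 (1.27 ± 0.08, adjusted p = 1.62e-12) and the activator PLAT (0.72 ± 0.16, adjusted p = 0.000443). F3 did not pass (-0.33 ± 0.24, 95% interval -0.82 to 0.16, adjusted p = 0.282). The median was -0.74, beside 0.01 over all genes. The libraries again did not overlap for any of the 7, as for 73% of all genes. Scaling to the 13 mitochondrially encoded mRNAs moved the median of all genes to -0.56 in resistant and -0.28 in parental cells, and the share of calls that were higher to 6.67% and 21.4%, in place of 47.4% and 46.7%. Under it the PLAT call in resistant cells ended (0.15, adjusted p = 0.657), F3 fell there (-0.91, adjusted p = 0.00915), and every other JQ1 call of both lines kept its direction and passed.

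With dBET6, thrombomodulin and urokinase fell in both lines, and under TMM scaling the receptor and SERPINE2 rose, while the receptor did not pass when scaled to total counts. In parental cells 2 of the 7 rose and 4 fell, where 76.3% of all genes passed (37% higher and 39.3% lower). THBD fell by 5.33 ± 0.19 (adjusted p = 3.7e-19), a fold of 0.0249. PLAU (-1.004 ± 0.095, adjusted p = 2.37e-10), PLAT (-0.61 ± 0.18, adjusted p = 0.00301) and F3, given below, fell less. SERPINE2 rose by 1.94 ± 0.08 (adjusted p = 2.85e-17) and PLAUR by 0.71 ± 0.09 (adjusted p = 2.85e-08). SERPINB2 did not pass (0.09 ± 0.09, 95% interval -0.10 to 0.28, adjusted p = 0.376). In resistant cells 4 of the 7 rose and 3 fell, where 75.2% of all genes passed (35.7% higher and 39.5% lower). THBD fell by 5.01 ± 0.19 (adjusted p = 9.84e-19), and PLAU (-1.43 ± 0.10, adjusted p = 4.36e-13) and F3 fell as well. SERPINE2 rose by 2.31 ± 0.09 (adjusted p = 7.85e-19), PLAUR by 1.09 ± 0.09 (adjusted p = 5.6e-12), SERPINB2 by 0.83 ± 0.10 (adjusted p = 8.65e-09) and PLAT by 0.60 ± 0.18 (adjusted p = 0.00333). The medians were -0.54 in parental and 0.60 in resistant cells, beside -0.01 and -0.06 over all genes. On TMM-scaled counts the dBET6 and DMSO libraries overlapped for none of the 7 in either line, as for 86.7% of all genes in parental and 87.1% in resistant cells.

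Tissue factor passed narrowly with dBET6, at -0.54 ± 0.23 in parental (adjusted p = 0.0319) and -0.65 ± 0.29 in resistant cells (adjusted p = 0.0464). The parental call ended without parental dBET6 2 (-0.38, adjusted p = 0.201), parental DMSO 1 (-0.59, adjusted p = 0.058) or parental DMSO 2 (-0.59, adjusted p = 0.058). The resistant call ended without resistant dBET6 1 (-0.67, adjusted p = 0.109), resistant dBET6 2 (-0.70, adjusted p = 0.108) or resistant DMSO 2 (-0.57, adjusted p = 0.143). The PLAT rise in resistant cells likewise ended without resistant dBET6 1 (0.45, adjusted p = 0.0707) or resistant DMSO 1 (0.48, adjusted p = 0.0587), and its fall in parental cells missed the threshold in DESeq2's Wald test (-0.49, adjusted p = 0.0637). The F3 call also ended, in parental and resistant cells, with RLE size factors (-0.42, adjusted p = 0.0937, and -0.47, adjusted p = 0.15), with DESeq2 (-0.42, adjusted p = 0.256, and -0.47, adjusted p = 0.293) and with only the libraries compared (-0.46, adjusted p = 0.0511, and -0.52, adjusted p = 0.12). In limma on log2(FPKM + 1) it was far smaller (-0.04, adjusted p = 0.835, and -0.22, adjusted p = 0.2), as in parental cells with a pseudocount of 0.1 (-0.05, adjusted p = 0.868, and -0.41, adjusted p = 0.191 in resistant cells). No call for PLAU, PLAUR, SERPINE2, SERPINB2 or THBD against DMSO, for either compound, ended when any 1 library was left out.

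**Figure D2:**
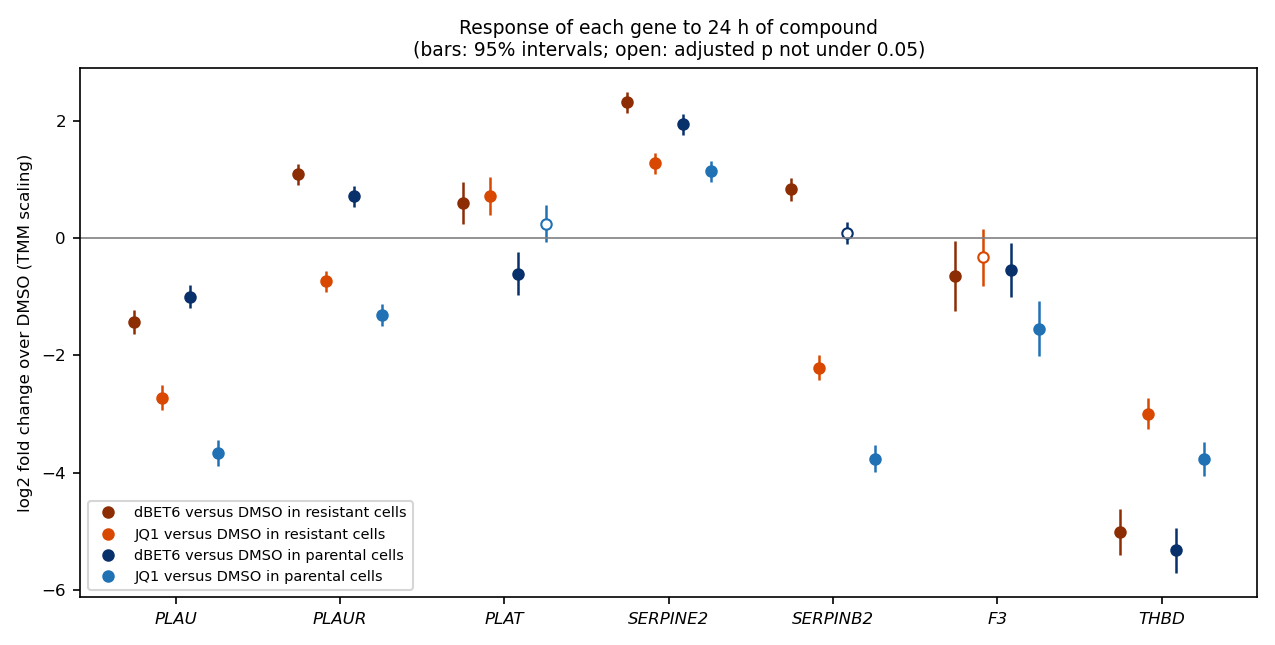
Log2 fold change of each gene over DMSO under TMM scaling (vertical axis), for dBET6 and JQ1 in resistant and parental cells, with 95% intervals; open points did not reach an adjusted p under 0.05. THBD lies below -2.5 in all 4 comparisons and SERPINE2 above 1, while PLAUR and SERPINB2 lie below 0 with JQ1 and not with dBET6 (a position that depends on the scaling for dBET6).

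The directions with dBET6 depended on what the libraries were scaled to. Scaling to total counts moved the median of all genes to -0.65 in parental and -1.14 in resistant cells, and scaling to mitochondrial mRNA moved it to -1.78 and -2.12. Of all called genes, 47.5% were higher with TMM, 22.5% with total counts and 8.94% with mitochondrial mRNA in resistant cells, and 48.5%, 30.6% and 11.4% in parental cells. THBD and PLAU fell in both lines under TMM, total counts, mitochondrial mRNA and RLE, and F3 under these but RLE. THBD stood at -6.08 with total counts and -7.07 with mitochondrial mRNA in resistant cells, and at -5.96 and -7.10 in parental cells. PLAU stood at -2.51 and -3.50 in resistant cells, and at -1.64 and -2.78 in parental cells. SERPINE2 rose with total counts in parental (1.30, adjusted p = 2.41e-12) and resistant cells (1.24, adjusted p = 3.78e-12) but did not pass with mitochondrial mRNA (0.17, adjusted p = 0.425, and 0.24, adjusted p = 0.258). PLAUR did not pass with total counts (0.07, adjusted p = 0.372, in parental and 0.01, adjusted p = 0.881, in resistant cells) and fell with mitochondrial mRNA (-1.07 in parental and -0.98 in resistant cells). SERPINB2 fell with total counts (-0.55 in parental and -0.25 in resistant cells) and with mitochondrial mRNA (-1.67 and -1.25). PLAT fell in resistant cells under both (-0.47 with total counts and -1.46 with mitochondrial mRNA).

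**Figure D3:**
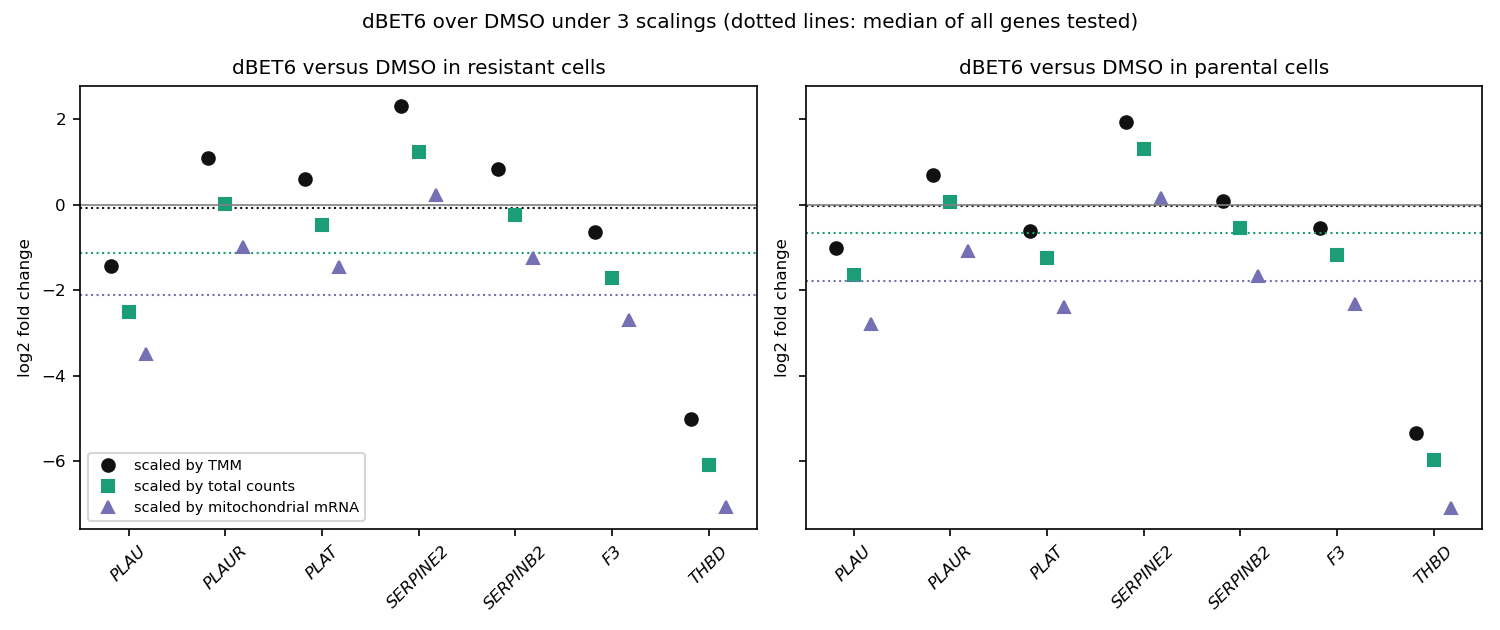
Log2 fold change of dBET6 over DMSO for each gene in resistant (left) and parental cells (right) under TMM (circles), total counts (squares) and mitochondrial mRNA scaling (triangles), with dotted lines in the same colours for the median of all genes. Points move down together with the median, THBD, PLAU and F3 lie under 0 in all 3, and PLAUR and SERPINB2 turn from above 0 to below it.

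At the same dose and time the degrader and the inhibitor differed for most of these genes, as they did for most of all genes tested. Against JQ1, 5 of the 7 were higher with dBET6 in parental cells and 2 lower, where 74.6% of all genes passed (36.2% higher and 38.4% lower). In resistant cells 4 were higher and 1 lower, where 74.2% passed (35.4% higher and 38.8% lower). The parental falls of THBD, SERPINB2 and PLAU with JQ1, known when the genes were chosen, enter the parental differences. Nothing is therefore read from the parental count or ranking. Under TMM scaling SERPINB2 was higher with dBET6 than with JQ1 in both lines. The difference was 3.85 ± 0.11 in parental (adjusted p = 1.71e-20) and 3.04 ± 0.11 in resistant cells (adjusted p = 4.29e-19), folds of 14.5 and 8.22. In resistant cells it was the largest of the 7. PLAU was higher by 2.66 ± 0.10 in parental (adjusted p = 4.54e-18) and 1.29 ± 0.11 in resistant cells (adjusted p = 1.57e-11), and PLAUR by 2.02 ± 0.09 (adjusted p = 4.72e-17) and 1.83 ± 0.09 (adjusted p = 1.88e-16). THBD ran the other way and was lower with dBET6 in parental (-1.56 ± 0.26, adjusted p = 4.99e-06) and resistant cells (-2.01 ± 0.24, adjusted p = 1.41e-08). SERPINE2 was higher with dBET6 by 0.80 ± 0.08 (adjusted p = 1.39e-09) and 1.04 ± 0.08 (adjusted p = 6.98e-12), while in parental cells F3 was higher (1.01 ± 0.25, adjusted p = 0.000743) and PLAT lower (-0.85 ± 0.17, adjusted p = 9.76e-05). In resistant cells PLAT (-0.12 ± 0.17, 95% interval -0.47 to 0.23, adjusted p = 0.527) and F3 (-0.32 ± 0.30, 95% interval -0.93 to 0.30, adjusted p = 0.348) did not pass, and these intervals do not show that the compounds act alike. SERPINB2 stayed higher and THBD lower with dBET6 under total counts and mitochondrial mRNA scaling in both lines. In resistant cells the THBD difference was then the larger, with total counts (-2.89, against 2.15 for SERPINB2) and with mitochondrial mRNA (-3.49, against 1.55). In parental cells THBD stood at -3.02 and SERPINB2 at 2.39 with mitochondrial mRNA. Total counts ended the calls of F3 in parental (0.48, adjusted p = 0.0769) and SERPINE2 in resistant cells (0.15, adjusted p = 0.0621), and made PLAT (-1.005, adjusted p = 1.52e-05) and F3 (-1.20, adjusted p = 0.000796) lower in resistant cells. With mitochondrial mRNA scaling the SERPINE2 difference turned to -0.67 in parental (adjusted p = 0.00119) and -0.45 in resistant cells (adjusted p = 0.0347), the PLAU difference in resistant cells turned to -0.20 (adjusted p = 0.372), the F3 difference in parental cells to -0.47 (adjusted p = 0.17), and PLAUR no longer passed in resistant cells (0.34, adjusted p = 0.118). Libraries of the compounds did not overlap for 7 of the 7 in parental cells, as for 85.8% of all genes, and for 6 in resistant cells, as for 86.2%. These 14 differences come from 7 genes in 2 lines, with p-values adjusted over all genes in each line.

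In DMSO, resistant cells held less urokinase, SERPINB2, tissue factor, PLAT and SERPINE2 RNA than parental cells. None of the 7 was called higher and 5 were lower, where 38.5% of all genes passed (17.4% higher and 21.2% lower). They were F3 (-1.16 ± 0.21, adjusted p = 9.39e-05), PLAU (-0.94 ± 0.09, adjusted p = 5.9e-09), SERPINB2 (-0.85 ± 0.09, adjusted p = 2.13e-08), PLAT (-0.53 ± 0.16, adjusted p = 0.00883) and SERPINE2 (-0.23 ± 0.08, adjusted p = 0.0303). PLAUR (0.20 ± 0.09, 95% interval 0.03 to 0.38, adjusted p = 0.0621) and THBD (0.13 ± 0.11, 95% interval -0.09 to 0.36, adjusted p = 0.37) did not pass. The libraries of the lines overlapped for none of the 7, as for 70.5% of all genes. The SERPINE2 call ended without resistant DMSO 1 (-0.27, adjusted p = 0.0816), resistant DMSO 2 (-0.20, adjusted p = 0.232), parental DMSO 1 (-0.20, adjusted p = 0.151) or parental DMSO 2 (-0.27, adjusted p = 0.0531). The PLAT call ended without resistant DMSO 1 (-0.46, adjusted p = 0.108) or parental DMSO 2 (-0.47, adjusted p = 0.0712). With total counts SERPINE2 missed the threshold (-0.16, adjusted p = 0.0951) and PLAUR passed (0.27, adjusted p = 0.00382), as PLAUR did without parental dBET6 1 (0.20, adjusted p = 0.0262) or parental dBET6 2 (0.20, adjusted p = 0.0258).

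Under the compounds the lines differed in other genes. With JQ1, 3 of the 7 were higher in resistant cells and 0 lower, where 35.9% of all genes passed (16.8% higher and 19% lower): THBD by 0.91 ± 0.16 (adjusted p = 6.21e-05), PLAUR by 0.78 ± 0.09 (adjusted p = 5.29e-08) and SERPINB2 by 0.70 ± 0.12 (adjusted p = 4.79e-05). With mitochondrial mRNA scaling, which moved the median of all genes to -0.49, these calls ended (0.40 for THBD, 0.26 for PLAUR and 0.17 for SERPINB2), and PLAU (-0.48, adjusted p = 0.0488), PLAT (-0.58, adjusted p = 0.0442) and SERPINE2 (-0.63, adjusted p = 0.00643) were lower. PLAU did not pass (0.01 ± 0.11, 95% interval -0.20 to 0.23, adjusted p = 0.947), and on TMM-scaled counts its JQ1 libraries overlapped between the lines, as did those of PLAT, F3 and SERPINE2. Of the 7, 3 did not overlap, as 66.8% of all genes did not. The parental JQ1 falls of THBD, SERPINB2 and PLAU, known when the genes were chosen, enter the comparison in JQ1, so nothing is read from its counts. SERPINE2 was apart in FPKM, and limma called it lower in resistant cells (-0.43 with a pseudocount of 1, adjusted p = 0.00956, and -0.44 with 0.1, adjusted p = 0.0103). With dBET6, PLAUR (0.58 ± 0.09, adjusted p = 2.84e-06) and PLAT (0.68 ± 0.19, adjusted p = 0.00512) were higher in resistant cells and PLAU (-1.36 ± 0.10, adjusted p = 1.65e-11) and F3 (-1.26 ± 0.30, adjusted p = 0.000875) lower, where 44% of all genes passed (19.7% higher and 24.3% lower). Libraries did not overlap for 6 of the 7, as for 68.5% of all genes. The PLAT call ended without resistant dBET6 1 (0.57, adjusted p = 0.0585) or parental dBET6 2 (0.51, adjusted p = 0.0764), it ended with total counts (0.31, adjusted p = 0.173), and under mitochondrial mRNA scaling the calls of PLAUR (0.05) and PLAT (0.15) ended. SERPINB2 was lower in resistant cells with total counts (-0.49, adjusted p = 0.000316) and mitochondrial mRNA (-0.67, adjusted p = 0.00496). SERPINE2 was lower there with total counts (-0.22, adjusted p = 0.0142) but higher with RLE (0.21, adjusted p = 0.0473) and DESeq2 (0.21, adjusted p = 0.0162).

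The fall with JQ1 was smaller in resistant than in parental cells for 5 of the 7, where 6.5% of all genes differed in response (3.62% higher and 2.88% lower). The parental falls of THBD, SERPINB2 and PLAU, known when the genes were chosen, enter these differences, so nothing is read from that share. The lines' responses, resistant minus parental, differed by 1.55 ± 0.15 for SERPINB2 (adjusted p = 1.91e-07), 0.95 ± 0.14 for PLAU (adjusted p = 6.52e-05), 0.58 ± 0.12 for PLAUR (adjusted p = 0.00372), 0.77 ± 0.20 for THBD (adjusted p = 0.0158) and 1.22 ± 0.33 for F3 (adjusted p = 0.024). SERPINB2 thus kept a fold of 0.216 of its line's DMSO level in resistant cells, against 0.0736 in parental cells, and PLAU 0.152, against 0.0787. For PLAU and F3 the lines did not differ past the threshold in JQ1 itself (0.01 and 0.06). Both were lower in resistant cells in DMSO (-0.94 and -1.16). Under TMM scaling their smaller falls thus start from lower DMSO levels and do not show more RNA with JQ1. The test was not passed for PLAT (0.48 ± 0.22, adjusted p = 0.215) or SERPINE2 (0.14 ± 0.12, 95% interval -0.10 to 0.38, adjusted p = 0.562). The THBD call ended, at 0.67 to 0.80, without resistant JQ1 1 (adjusted p = 0.0526), resistant JQ1 2 (adjusted p = 0.0755), resistant DMSO 1 (adjusted p = 0.0549), resistant DMSO 2 (adjusted p = 0.0763), parental JQ1 1 (adjusted p = 0.0623) or parental DMSO 2 (adjusted p = 0.056). The F3 call ended, at 1.03 to 1.34, without resistant JQ1 1 (adjusted p = 0.145), resistant DMSO 1 (adjusted p = 0.124), resistant DMSO 2 (adjusted p = 0.055), parental JQ1 1 (adjusted p = 0.0819) or parental DMSO 1 (adjusted p = 0.0642). The differences of SERPINB2, PLAU and PLAUR passed without any 1 library, but with mitochondrial mRNA scaling only that of SERPINB2 did, and those of PLAU (0.70, adjusted p = 0.244) and PLAUR (0.30, adjusted p = 0.671) did not.

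For dBET6 the lines' responses differed for 5 of the 7, where 27.9% of all genes did (13.7% higher and 14.2% lower). They were higher in resistant cells by 1.21 ± 0.25 for PLAT (adjusted p = 0.000537), 0.74 ± 0.13 for SERPINB2 (adjusted p = 0.000109), 0.38 ± 0.12 for PLAUR (adjusted p = 0.0197) and 0.37 ± 0.12 for SERPINE2 (adjusted p = 0.0171), and lower for PLAU (-0.43 ± 0.14, adjusted p = 0.02). THBD (0.32 ± 0.37, 95% interval -0.43 to 1.07, adjusted p = 0.602) and F3 (-0.10 ± 0.37, 95% interval -0.86 to 0.65, adjusted p = 0.877) did not pass. The PLAU call ended, at -0.44 to -0.32, without resistant dBET6 1 (adjusted p = 0.0911), resistant DMSO 1 (adjusted p = 0.0756), resistant DMSO 2 (adjusted p = 0.0545), parental dBET6 1 (adjusted p = 0.104) or parental DMSO 1 (adjusted p = 0.0622). The PLAUR call ended, at 0.26 to 0.40, without resistant DMSO 1 (adjusted p = 0.0806), resistant DMSO 2 (adjusted p = 0.061), parental dBET6 2 (adjusted p = 0.0873) or parental DMSO 2 (adjusted p = 0.075). The SERPINE2 call ended, at 0.34 to 0.36, without resistant dBET6 2 (adjusted p = 0.0553), resistant DMSO 2 (adjusted p = 0.104) or parental DMSO 1 (adjusted p = 0.0583). Total counts, which moved the median of all genes to -0.48, left 2 calls, PLAT (0.77, adjusted p = 0.0153) and PLAU (-0.86, adjusted p = 1.96e-05). With mitochondrial mRNA scaling 0 of the 7 passed in edgeR's test, the lowest adjusted p being 0.0729 for PLAT. Of all 19093 genes, 7444 passed with total counts and 2727 with mitochondrial mRNA scaling, so nothing is read from these counts of 2 and 0.

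**Figure D4:**
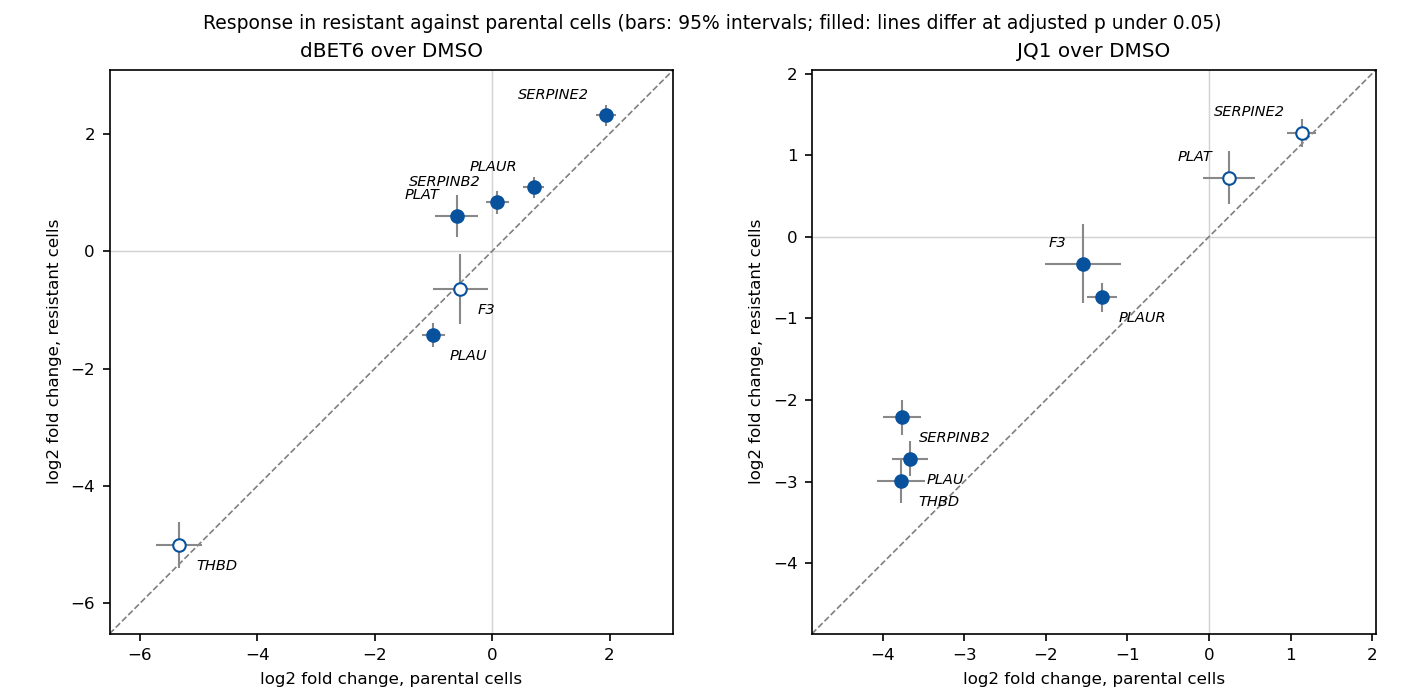
Log2 fold change over DMSO in resistant cells (vertical axis) against parental cells (horizontal axis) for dBET6 (left) and JQ1 (right), with 95% intervals and a dashed line of equal response. Filled points are genes whose responses differed between the lines at an adjusted p under 0.05: with JQ1, SERPINB2, PLAU, THBD, PLAUR and F3 lie above the line, and with dBET6, PLAT, SERPINB2, PLAUR and SERPINE2 lie above it and PLAU below.

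Single transcripts were followed where a gene had several. Protein-coding transcripts made up 92.3% to 100% of the TPM of PLAU, 99.3% to 100% of SERPINB2 and all of THBD, whose 1 transcript has no alternative. For F3 the share of TPM in protein-coding transcripts was 45.8% and 35.5% in resistant dBET6, 79.9% and 74.5% in resistant JQ1 and 63.0% and 78.8% in resistant DMSO. In parental cells it was 42.0% and 26.4% with dBET6, 71.8% and 94.5% with JQ1 and 92.8% and 90.1% with DMSO. The dBET6 libraries of both lines lay below all 8 others. As a share of estimated counts the means were higher, at 55.8% in resistant and 48.1% in parental dBET6, against 87.1% to 95.4% in the other groups. In the dBET6 libraries the rest was a processed transcript of 1193 bases with no annotated coding sequence, at 26.9 and 27.4 estimated counts in parental dBET6, against 6.37 and 8.59 in parental DMSO, and at 6.08 and 9.23 in resistant dBET6, against 1.498 and 9.453 in resistant DMSO. With protein-coding transcripts alone, an alternative added after the data were seen, F3 fell with dBET6 in parental (-1.41 ± 0.29, adjusted p = 0.000233) and resistant cells (-1.27 ± 0.37, adjusted p = 0.00472), and the parental dBET6 libraries no longer differed from JQ1 past the threshold (0.21 ± 0.32, adjusted p = 0.573). Such counts are few, and kallisto divides reads between transcripts of 1 gene by estimation.

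The make-up of SERPINE2 and PLAUR varied between libraries and was not tested. A retained-intron transcript of 563 bases took 37.0% and 30.6% of SERPINE2 TPM in resistant dBET6, 0% and 6.03% in resistant JQ1 and 1.75% and 5.41% in resistant DMSO. In parental cells it took 31.0% and 40.1% with dBET6, 30.5% and 24.1% with JQ1 and 6.94% and 32.9% with DMSO, so the parental DMSO libraries were far apart and spanned both parental JQ1 libraries. Of SERPINE2 estimated counts this transcript took less, at 12.6% and 9.36% in resistant dBET6 and 10.1% and 14.2% in parental dBET6. The share of PLAUR TPM in protein-coding transcripts was 64.5% and 70.9% in resistant dBET6, 77.4% in each resistant JQ1 library and 80.9% and 80.6% in resistant DMSO, and it was 82.0% and 76.3% in parental dBET6, 81.4% and 77.9% in parental JQ1 and 90.6% and 88.0% in parental DMSO. In both lines both compounds lay below DMSO for PLAUR. With protein-coding transcripts alone PLAUR still rose with dBET6 in parental (0.70, adjusted p = 3.42e-07) and resistant cells (1.02, adjusted p = 1.44e-09) under TMM scaling, and SERPINE2 still rose (1.90 and 2.22).

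**Figure D5:**
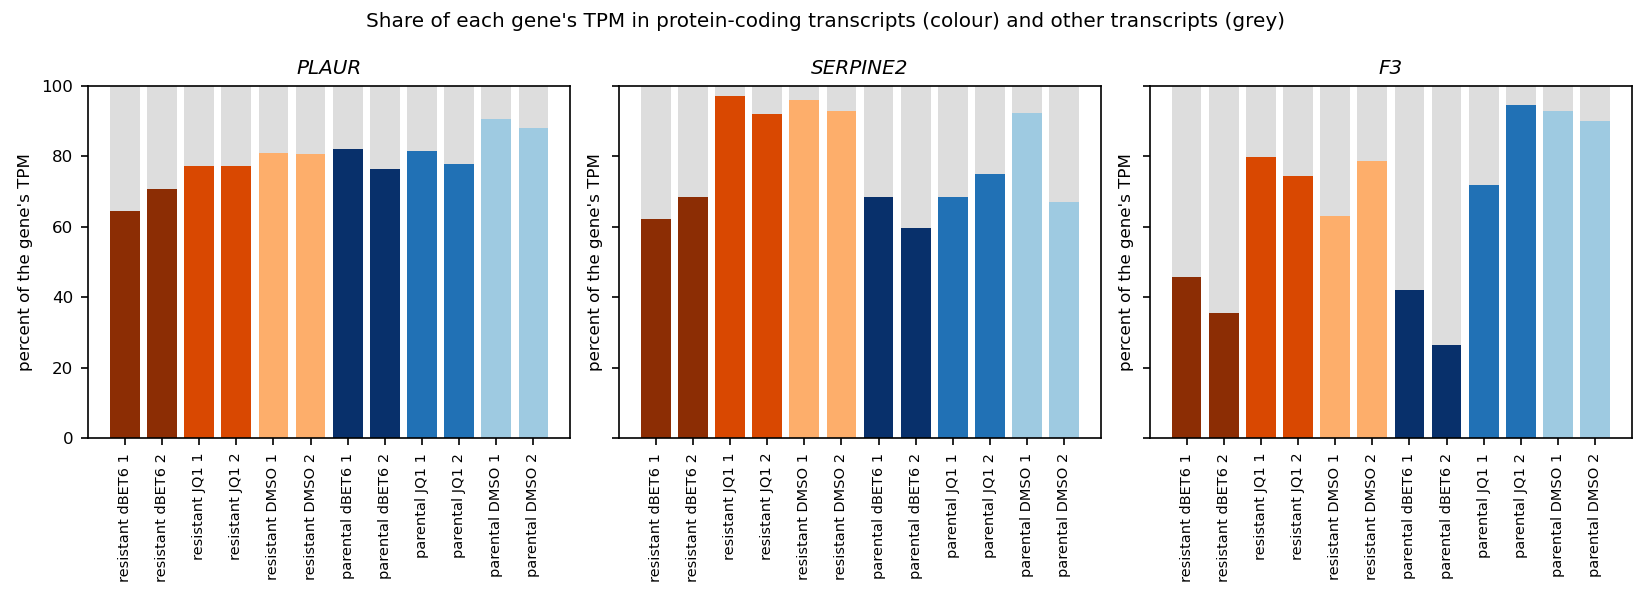
Percent of the TPM of PLAUR, SERPINE2 and F3 in protein-coding transcripts (coloured by group) and in other transcripts (grey) in each library. The F3 share lies between 26.4% and 45.8% in the dBET6 libraries and between 63.0% and 94.5% elsewhere, and the 2 parental DMSO libraries differ for SERPINE2.

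Among 30 other genes of the plasminogen system, 23 were tested. The list was written with earlier results of these data known, so its counts and medians are a description. With dBET6, 16 were higher and 3 lower in resistant cells (median 1.22) and 18 higher and 4 lower in parental cells (median 1.36). Of all genes, 35.7% were higher and 39.5% lower in resistant and 37% and 39.3% in parental cells. With JQ1, 7 were higher and 3 lower in resistant cells (median 0.02) and 9 higher and 7 lower in parental cells (median 0.32). Of all genes, 20.8% were higher and 23.1% lower in resistant and 22.8% and 26.1% in parental cells. Scaling to mitochondrial mRNA turned the dBET6 counts to 2 higher and 11 lower in resistant and 5 higher and 11 lower in parental cells, with medians of -0.82 and -0.42, beside -2.12 and -1.78 over all genes. It turned the JQ1 counts to 1 higher and 9 lower in resistant and 3 higher and 7 lower in parental cells. The JQ1 medians were then -0.56 and 0.03, beside -0.56 and -0.28 over all genes. Of the 19093 genes, 15539 in resistant and 15525 in parental cells passed under it with dBET6. With JQ1, 8920 and 7255 passed. Most of these calls were lower. S100A10, a subunit of a plasminogen receptor, rose with dBET6 in resistant cells (2.21 ± 0.09, adjusted p = 4.78e-18) and with JQ1 in resistant (1.02 ± 0.09, adjusted p = 2.81e-10) and parental cells (1.18 ± 0.09, adjusted p = 1.17e-11). CTSB, cathepsin B, which can activate pro-urokinase, rose with dBET6 by 2.06 ± 0.09 in resistant (adjusted p = 1.82e-17) and 1.501 ± 0.089 in parental cells (adjusted p = 1.29e-14). With mitochondrial mRNA scaling neither CTSB (-0.01 and -0.27) nor S100A10 in resistant cells (0.15 with dBET6 and 0.45 with JQ1) passed. SERPINI1, neuroserpin, an inhibitor of tissue plasminogen activator, rose with JQ1 to 4.72 and 5.45 FPKM in parental cells, against 0.580 and 0.827 FPKM with DMSO (2.62 ± 0.20, adjusted p = 2.63e-11), and SERPINB8, a serpin of the same clade as SERPINB2, fell there by 1.24 ± 0.10 (adjusted p = 4.4e-11). In DMSO, 2 of the 23 were higher and 11 lower in resistant than in parental cells (17.4% and 21.2% of all genes), among them VLDLR, a receptor that clears protease-serpin complexes (-1.43 ± 0.14, adjusted p = 5.37e-09).

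Of 24 genes of coagulation and the protein C pathway, 18 were tested. This list too was written with earlier results known, and its counts and medians are a description. With dBET6, 14 were higher and 3 lower in resistant cells (median 1.22) and 13 higher and 2 lower in parental cells (median 0.96), where 75.2% and 76.3% of all genes passed. Mitochondrial mRNA scaling gave 2 higher and 11 lower in resistant and 3 higher and 13 lower in parental cells. The medians were then -0.83 and -0.81, beside lower medians of -2.12 and -1.78 over all genes. Of the 19093 genes, 15539 and 15525 passed under it, and 8.94% and 11.4% of these were higher. With JQ1, 4 were higher and 6 lower in resistant cells (median -0.03) and 3 higher and 7 lower in parental cells (median -0.24), where 43.9% and 48.9% of all genes passed. Mitochondrial mRNA scaling gave 0 higher and 9 lower in resistant and 2 higher and 9 lower in parental cells. The medians were then -0.60 and -0.55, beside -0.56 and -0.28 over all genes. Of the 19093 genes, 8920 and 7255 passed under it, and 6.67% and 21.4% of these were higher. Under TMM scaling the 10 JQ1 calls in resistant cells became 6 without resistant JQ1 2 or without resistant DMSO 1. TFPI, the inhibitor of the tissue factor complex, fell with JQ1 in resistant (-1.07 ± 0.10, adjusted p = 3.34e-09) and parental cells (-1.73 ± 0.11, adjusted p = 5.63e-13). F2RL1, a protease-activated receptor cleaved by trypsin-like proteases, fell with JQ1 in resistant (-1.502 ± 0.151, adjusted p = 4.91e-09) and parental cells (-1.66 ± 0.15, adjusted p = 8.52e-10), and with dBET6 to 0.0955 and 0.533 FPKM in parental cells, against 5.34 and 5.45 FPKM with DMSO (-4.82 ± 0.25, adjusted p = 6.38e-16). Its parental dBET6 libraries held only 5 and 12 estimated counts of it, against 532 and 481 in parental DMSO, so the size of that fall is uncertain. PROCR, the endothelial protein C receptor, rose with dBET6 in resistant cells (1.54 ± 0.09, adjusted p = 4.87e-15), as did GAS6 (1.99 ± 0.10, adjusted p = 1.69e-16) and VKORC1 (1.78 ± 0.09, adjusted p = 1.46e-16), of which none stayed higher with mitochondrial mRNA scaling. SERPINC1, antithrombin, had 124 and 115 estimated counts in parental dBET6, against 0 and 1 in parental DMSO. In DMSO, 5 of the 18 were higher and 5 lower in resistant than in parental cells (17.4% and 21.2% of all genes), GAS6 (1.03 ± 0.10, adjusted p = 1.91e-09) being higher and ANXA5, an anticoagulant lipid-binding protein, lower (-1.17 ± 0.09, adjusted p = 6.65e-11).

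The genes whose levels ran most like each member were found by Pearson correlation of log2(FPKM + 1) over the 12 libraries, among 11842 genes, as a description in which all points share libraries and the factor per library of the FPKM. THBD ran closest to GPX8 (0.99), SERPINB2 to NT5E (0.99), PLAU to ETV4 (0.98) and PLAUR to WDR45 (0.99). SERPINE2 ran closest to H1FX (1.00), F3 to PCNA (0.97) and PLAT to NPEPPS (0.91).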

How the data were processed

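PolyA RNA of 12 U87 libraries, 2 for each of 6 groups, was used. The deposited files per library hold kallisto's estimated counts and TPM per transcript, per the file headers. The deposited FPKM stand in a single table of genes; the submitters' processing notes name kallisto, DESeq2 and hg19, without versions and without how FPKM was derived.

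Transcripts were paired with genes through GENCODE 29, a newer annotation (92.1% paired), and their counts added up per gene and rounded. Genes kept by filterByExpr (19093) were scaled by TMM and tested in 1 fit of 6 group means with edgeR 4.0.16 (R 4.3.3, robust quasi-likelihood), checked on simulated data; intervals cover 95%. Alternatives used other scalings, DESeq2 1.42.0, limma 3.58.1 on log2 FPKM, no filter, fewer libraries, a replicate block and, added after the data were seen, protein-coding transcripts alone. From each wider list, the rule named the 3 genes with the smallest p past the threshold in each comparison with DMSO and between the lines in DMSO, of which part is printed. The members and lists were chosen with earlier results of these data known.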

Additional observations from a re-analysis of the deposited data

Results flagged for a closer look

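The response to JQ1 differed between the lines, by edgeR's test of the difference (resistant minus parental, log2), for SERPINB2 (1.55), F3 (1.22), PLAU (0.95), THBD (0.78) and PLAUR (0.58). Each was less of a fall from the line's own DMSO level in resistant cells. For PLAU and F3 the lines did not differ past the threshold in JQ1 itself, and resistant cells were lower in DMSO. The response to dBET6 differed by the same test for PLAT (1.21), SERPINB2 (0.74), PLAUR (0.38), SERPINE2 (0.37) and PLAU (-0.43). PLAT was the gene that fell with dBET6 in parental cells and rose in resistant cells under TMM scaling. Groups of 2 libraries are too small for a search for outlying libraries.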

How the results depend on the processing

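The 77 values (7 genes in 11 comparisons) were recomputed under 10 other settings and without each of the 12 libraries. DESeq2 gave no adjusted p for F3 in the JQ1 response between the lines. Of the 1693 values so obtained, 1529 kept their direction and their side of the threshold, 100 no longer passed, 20 newly passed and 44 changed sign; the cause was not tested beyond what a setting's own construction shows. Counts of members called that moved by over 1.5 times were these. For the JQ1 response between the lines (5), 1 was called with mitochondrial mRNA scaling, 3 with limma on log2(FPKM + 1), 2 with limma on log2(FPKM + 0.1), and 3 to 5 without 1 library. Of all genes, 1241 of 19093 passed in the main fit, 335 of 19093 with mitochondrial mRNA scaling, and 301 and 236 of 15598 with limma. For the dBET6 response between the lines (5), 2 were called with total counts, 0 with mitochondrial mRNA scaling, 3 without a filter beyond 1 count, 3 with protein-coding transcripts alone, and 2 to 5 without 1 library. Of all genes, 5333 of 19093 passed in the main fit, 7444 with total counts and 2727 with mitochondrial mRNA scaling. Without a filter 5175 of 37255 passed, and with protein-coding transcripts alone 4862 of 18530. For the lines in DMSO (5), 3 to 6 were called without 1 library.

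Signs changed with mitochondrial mRNA scaling for these log2 values: with JQ1 in parental cells PLAT (-0.053); with dBET6 in parental cells PLAUR (-1.07), SERPINB2 (-1.67), GGCX (-0.54) and CTSB (-0.27); with dBET6 in resistant cells PLAUR (-0.98), PLAT (-1.46), SERPINB2 (-1.25), VKORC1 (-0.28), GAS6 (-0.081), PROCR (-0.52) and CTSB (-0.005); for dBET6 against JQ1 in parental cells F3 (-0.47) and SERPINE2 (-0.68), and in resistant cells PLAU (-0.20) and SERPINE2 (-0.45); for resistant against parental cells in DMSO PLAUR (-0.045) and THBD (-0.12), in JQ1 F3 (-0.46) and PLAU (-0.48), in dBET6 SERPINE2 (-0.40) and THBD (-0.077); and for the JQ1 response between the lines SERPINE2 (-0.16). With total counts they changed for SERPINB2 with dBET6 in parental (-0.55) and resistant cells (-0.25), PLAT with dBET6 in resistant cells (-0.47), SERPINE2 between the lines in dBET6 (-0.22), and the dBET6 response between the lines of PLAUR (-0.057), SERPINE2 (-0.065) and THBD (-0.12). Without a filter SERPINB2 stood at -0.056 with dBET6 in parental cells. PLAT, dBET6 against JQ1 in resistant cells, stood at 0.075 with RLE size factors and with DESeq2. In limma with pseudocounts of 1 and 0.1, F3 in that comparison stood at 0.033 and 0.069, and between the lines in JQ1 PLAT stood at 0.003 and 0.005 and PLAU at -0.021 and -0.024; with 1, THBD stood at -0.032 for the dBET6 response between the lines. With protein-coding transcripts alone SERPINE2 stood at 0.017 between the lines in JQ1 and F3 at 0.14 for the dBET6 response between the lines. Without 1 library, the values that changed sign ranged between the lines in JQ1 from -0.13 to 0.21 (F3), -0.131 to 0.028 (PLAT) and -0.12 to 0.17 (PLAU), and for the dBET6 response between the lines from -0.30 to 0.13 (F3) and -0.039 to 0.645 (THBD).

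Replicate numbers gave no pairing: the deviations of same-numbered libraries correlated between -0.058 and 0.061 over 15 pairs of groups. A replicate block left the count of members called at 6 for JQ1 in parental cells and moved it in 1 comparison alone, dBET6 against DMSO in resistant cells, to 6 in place of 7, where F3 (-0.65, adjusted p = 0.0536) was lost. Depth limits F3, PLAT and THBD most, with 11 to 16 counts for THBD in the dBET6 libraries.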
